A study of Homo sapiens with 14 samples.

Results

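The comparison described here is that of OmoMYC-expressing with EGFP-expressing CHP-134 cells, taken from the count columns that carry those names. It covers 6 of the 14 RNA-seq libraries of the series and all 17810 genes listed in its table, of which 13803 had enough counts to be tested. CHP-134 is a long-established line of human neuroblastoma cells with an amplified MYCN gene. In the 3 EGFP and the 3 OmoMYC libraries, cells carrying a doxycycline-inducible construct received 1 µg/ml doxycycline for 3 days, so both groups were exposed to the drug and both made a foreign protein. The lines were engineered separately, so a difference between lines cannot be told apart from an effect of the induced protein, and the table has no OmoMYC library without doxycycline. The 4 DMSO libraries of parental CHP-134 cells, which received no doxycycline, are used below only to show levels, since they belong to another experiment that was scaled separately. In that other experiment, 0.159% of tested genes were called changed by dTAG47 against DMSO.

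MYC and N-MYC bind DNA as dimers with MAX, most often at a 6-base element called the E-box. Their targets are known to include genes of ribosome assembly, nucleotide and polyamine synthesis and cell division, and an excess of N-MYC holds neuroblasts in a dividing state. OmoMYC is a mutated copy of the MYC dimerization and DNA-binding region. It pairs with itself, with MAX and with MYC proteins, and occupies E-boxes without activating transcription.

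Each library held between 28060817 and 38358128 counts, and levels are given as CPM, which relate a gene's count to the TMM-scaled size of its library. A gene was called induced or suppressed when its false discovery rate (FDR) in edgeR's quasi-likelihood test was below 0.05. The largest axis of variation carried 81.8% of the variance and separated the groups. The EGFP libraries also differed among themselves. The counts of EGFP replicates 1 and 3 differed with a chi-square of 44.6 for each degree of freedom, where sampling of reads alone would give about 1, and pairs of OmoMYC libraries gave 2.9 to 9.1. Transcript GC content moved with both differences. With genes split into 10 equal classes by GC content, the highest class minus the lowest differed by a log2 CPM of -1.5, -1.05 and -0.76 in EGFP replicates 1, 2 and 3, and of -0.46, -0.54 and -0.23 in OmoMYC replicates 1, 2 and 3. The 2 groups did not overlap in this measure, and the spread was wider within EGFP. In the lowest class 54.1% of genes were suppressed and 7.41% induced, against 5.04% and 51.1% in the highest. The origin of this trend was not tested. For single genes, values obtained after the trend on GC content had been removed from each library are therefore given as well. They are given wherever they change a call or move a log2 fold change by more than 1.5 times. For lists they are given only in part, so a missing value does not mean an unchanged count. Removal was possible for 13499 of the tested genes, so some lists have fewer members there.

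**Figure D1:**
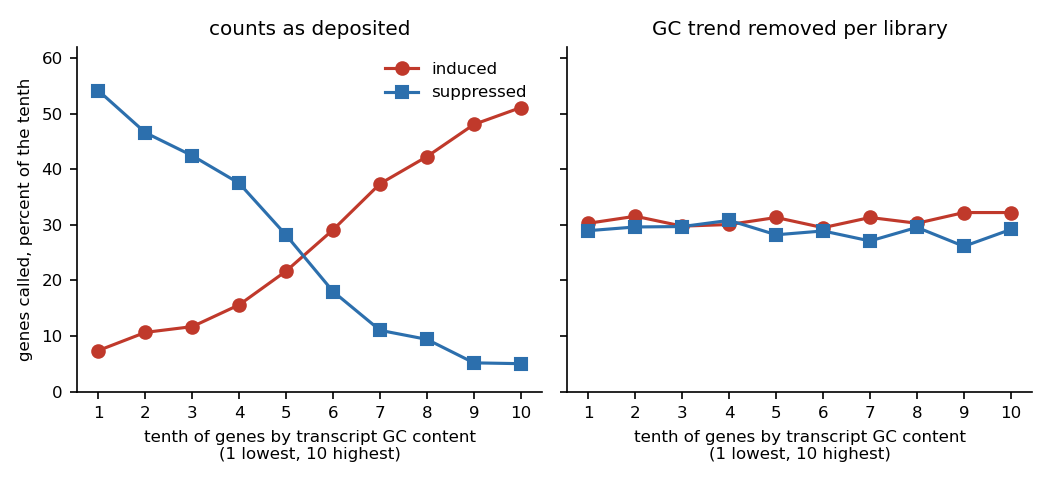
Share of tested genes called induced (red circles) or suppressed (blue squares) in 10 equal classes of genes ordered by transcript GC content, from the counts as deposited (left) and with the GC trend removed from each library (right). On the left the induced share climbs from 7.41% to 51.1% and the suppressed share drops from 54.1% to 5.04%.

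MYC, the gene from which the transgene was made, was the check of the labels. It was counted at 0.568, 0.573 and 0.689 CPM in the EGFP libraries and at 513, 527 and 526 CPM in the OmoMYC libraries. The groups were far apart, with a log2 fold change of 9.73 ± 0.10 (SE) and an FDR of 1.16e-12. Reads of the OmoMYC transgene and of MYC itself (ENSG00000136997.10, hg19 chromosome 8, 128747680 to 128755197) cannot be told apart in counts per gene. Parental DMSO libraries had 0.44 to 0.65 CPM. MYCN (ENSG00000134323.10, chromosome 2, 16080672 to 16087129) was at 2408, 2829.8 and 2899.9 CPM with EGFP and at 2227, 2182 and 2312 CPM with OmoMYC. All OmoMYC libraries lay below all EGFP libraries, by a log2 fold change of -0.28 ± 0.07 (FDR 0.0103), or -0.49 with the GC trend removed.

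Of the 12 MYC network genes tested, 5 were induced and 3 suppressed (5 without EGFP replicate 3), beside 27.3% and 25.7% of all tested genes. The 5 induced include MYC itself, whose count holds reads of the transgene, so its call says nothing about the network. MXD4, a MAX partner that represses transcription, rose from 79.0 ± 8.95 to 166 ± 16 CPM (SD, n = 3 per group, as throughout), and 2 further repressive partners rose, MXD1 with a log2 fold change of 0.74 and MNT with 0.66 (0.37 with the GC trend removed). MLXIP, the MLX partner that senses glucose metabolites, rose by 0.55 (0.32 with the GC trend removed). MXD3, a member of the MXD family, fell by 0.49 on the log2 scale. MYCL, a further MYC family gene, fell by 0.34 and was not called without OmoMYC replicate 2, while with the GC trend removed it fell by 0.55. MAX itself was at 55.2, 53.1 and 51.9 CPM with EGFP and at 59.8, 59.9 and 60.4 CPM with OmoMYC. These groups did not overlap, but the log2 fold change of 0.17 ± 0.07 was not called (FDR 0.0591). It was called without EGFP replicate 1, with library sizes as the only scaling, and among genes with at least 10 counts in every library, each time with 0.18, and with the GC trend removed it was 0.09 and not called.

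Over all tested genes 3766 (27.3%) were induced and 3545 (25.7%) suppressed. Past 2-fold the sides were unequal, with 922 genes (6.68%) induced and 216 (1.56%) suppressed, and past 4-fold the numbers were 276 and 9. Past 16-fold there were 72 induced genes. The OmoMYC and EGFP libraries did not overlap for 62.3% of tested genes. The rises past 2-fold lay mostly under 10 CPM. Of 1310 genes with a mean under 1 CPM, 252 rose past 2-fold and 85 fell past 2-fold. Of 3052 genes between 1 and 10 CPM, 386 rose and 81 fell by that much. Between 10 and 100 CPM, 241 of 6996 rose and 48 fell, and of 2445 genes above 100 CPM, 43 rose and 2 fell. Among those above 100 CPM, 34.8% were suppressed and 23.8% induced.

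**Figure D2:**
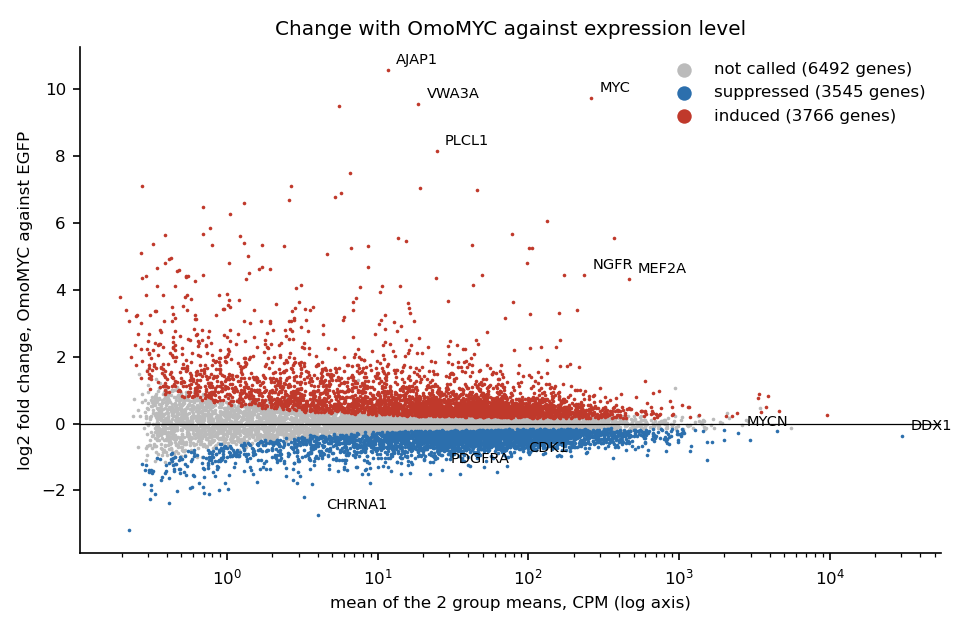
Log2 fold change of OmoMYC against EGFP for each of 13803 tested genes against its mean CPM (log axis), with induced genes in red, suppressed genes in blue and others in grey. Rises extend to 10.58 (AJAP1), whereas the falls among genes at 1 CPM or more end at -2.75 (CHRNA1).

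The largest rises were of genes that EGFP cells barely expressed. AJAP1, a protein of adherens junctions, had 0, 0 and 1 counts with EGFP and 799, 832 and 654 with OmoMYC. Its ratio was 2062-fold with a 95% counting interval from 369.6 to 81463. KLHL1, a kelch protein that binds actin, had 1, 0 and 0 counts against 384, 407 and 299, a ratio of 983-fold (176 to 38878). COMP, a protein of cartilage matrix, had 0, 1 and 2 counts against 199, 168 and 144, a ratio of 154-fold (52.3 to 748). These intervals cover counting error only. All 3 genes were on with OmoMYC in every library, and parental DMSO libraries held at most 2 counts of any of them.

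PLCL1, a phospholipase C-like protein without lipase activity, was at 0.189, 0.179 and 0.138 CPM with EGFP and at 49.9, 49.4 and 48.1 CPM with OmoMYC (log2 fold change 8.15 ± 0.14). DSCAM, an adhesion molecule of neurites, was at 0.315, 0.322 and 0.207 CPM against 40.0, 35.3 and 38.0 CPM (7.04 ± 0.15). PYY, a peptide hormone of the gut, was at 0.536, 0.645 and 0.930 CPM against 103, 82.4 and 85.9 CPM (7.0 ± 0.17). The OmoMYC values of each of these genes lay within a narrow range far above EGFP. VWA3A (9.57 ± 0.25), BCAM, a laminin receptor (6.91 ± 0.29), ADAMTSL3, a matrix glycoprotein (6.79 ± 0.27), and OPCML, an IgLON adhesion molecule (6.70 ± 0.33), were, like MYC, also among the 12 largest rises. These fitted values depend on few EGFP counts.

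In 46 induced genes every EGFP library was at or under 3 counts, and of the 44 that the parental table also lists, 25 were at or under 3 counts in every parental DMSO library. Of the 911 genes induced past 2-fold and listed there, the parental level was nearer to that of EGFP for 822 (90.2%). Of the 209 suppressed past 2-fold and listed, it was nearer to EGFP for 121 (57.9%). Parental cells thus stood closer to OmoMYC cells for 88 of the genes suppressed past 2-fold. SIM1, a bHLH-PAS factor of hypothalamic neurons, was at 1.61 ± 0.0842 CPM with EGFP, at 0.421 ± 0.141 CPM with OmoMYC, and between 0.23 and 0.59 CPM in parental cells. For these genes, as for all others, the line and the induced protein cannot be told apart. The share nearer to EGFP was not taken over all tested genes, so the shares above have no background beside them.

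**Figure D3:**
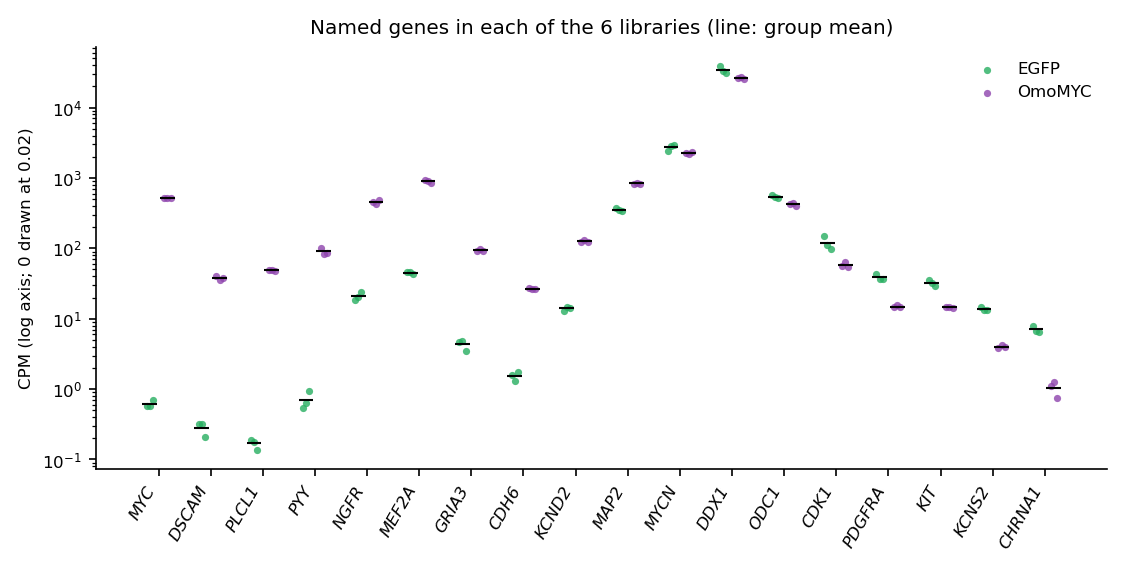
CPM (log axis) of 18 genes in each EGFP (green) and OmoMYC (purple) library, with a line at each group mean. The groups do not overlap for any of these genes, from MYC (mean 0.610 against 522 CPM) to CHRNA1 (mean 7.04 against 1.03 CPM). Most of them were named by a rule that requires this, and 62.3% of all tested genes do not overlap.

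The falls were smaller. CHRNA1, the alpha subunit of the muscle acetylcholine receptor (ENSG00000138435.10, chromosome 2, 175612320 to 175652663), was at 7.98, 6.59 and 6.54 CPM with EGFP and at 1.09, 1.25 and 0.756 CPM with OmoMYC (log2 fold change -2.75 ± 0.18, FDR 1.42e-06). SLC24A2, an exchanger of sodium against calcium and potassium, was at 6.09, 5.41 and 4.55 CPM against 0.921, 1.40 and 1.15 CPM (-2.19 ± 0.19). KCNS2, a modulatory potassium channel subunit, was at 14.7, 13.3 and 13.2 CPM against 3.82, 4.18 and 3.98 CPM (-1.78 ± 0.11). The groups did not overlap in all 3 genes, which the rule that named them required. Parental levels were at or above those of EGFP for CHRNA1 and SLC24A2 (14 to 15 CPM each) and between the groups for KCNS2 (10 to 11 CPM). The other 9 were NEUROD6 (-2.10), a neuronal bHLH factor, ANGPT1 (-2.08), the ligand of the TIE2 receptor, GALNT5 (-1.99), an enzyme of O-glycosylation, SIM1 (-1.96), GLI1 (-1.90), the effector of hedgehog signalling, RGCC (-1.81), a cell cycle regulator, DMRTA1 (-1.79), ZIC5 (-1.78) and STEAP1 (-1.78), and all of them lay under 7 CPM in every EGFP library. Of these 9, only NEUROD6 had a parental median above its EGFP mean (5.02 against 1.23 CPM). For all the others the parental median was below the EGFP mean. It was 0.357 CPM for ANGPT1 (means 1.13 with EGFP and 0.267 with OmoMYC) and 2.29 CPM for RGCC (5.76 and 1.62). For STEAP1 it was 0.224 CPM (1.51 and 0.447).

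Lists of genes were next described by role, each beside the 27.3% induced, 25.7% suppressed and median log2 fold change of 0.01 over all tested genes. Of 34 enzymes of nucleotide and one-carbon synthesis, 26 were suppressed and 1 induced (median -0.38), and with the GC trend removed 30 and 1 (median -0.36). HPRT1, which salvages purines, was at 71.6, 62.6 and 54.5 CPM with EGFP and at 31.8, 35.9 and 29.9 CPM with OmoMYC (-0.95 ± 0.11), and PRPS2, which makes phosphoribosyl pyrophosphate, fell from 86.7 ± 5.17 to 47.9 ± 3.39 CPM. The groups were apart for both, as the rule that named them required. CAD, which starts pyrimidine synthesis, was at 346, 375 and 424 CPM against 315, 307 and 331 CPM, a fall of 0.27 on the log2 scale that was not called without OmoMYC replicate 1 and that was 0.50 with the GC trend removed. The single member that rose was IMPDH1, an enzyme of guanine nucleotide synthesis (0.58, and 0.27 with the GC trend removed).

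Of 52 genes of the nucleolus and RNA polymerase I, 30 were suppressed and 5 induced (median -0.21, also with the GC trend removed, when 38 were suppressed and 4 induced). The number induced was 2 without OmoMYC replicate 3 and 3 without EGFP replicate 2 or OmoMYC replicate 1. NOC3L, a factor of large subunit assembly, fell by 0.59 on the log2 scale and NOP58, a core protein of box C/D snoRNPs, by 0.57, and these falls were 0.29 and 0.35 with the GC trend removed. UBTF, which activates RNA polymerase I at ribosomal DNA, went the other way, from 253, 299 and 324 CPM to 524, 518 and 575 CPM (0.88 ± 0.09). RRP12, a ribosome export factor, rose by 0.51 (0.26 with the GC trend removed). NCL, the nucleolar protein nucleolin, was at 1134, 1079.6 and 1092 CPM against 986, 982 and 1009.8 CPM. Its fall of 0.15 was called (FDR 0.0415) but was lost when EGFP replicate 2 or either of OmoMYC replicates 1 and 2 was left out, with the GC trend removed (-0.08), with library sizes as the only scaling, and under both other filters on low counts.

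Of 40 translation factors, 17 were suppressed and 3 induced (median -0.13), with 1 induced without EGFP replicate 2 and 5 without EGFP replicate 3. With the GC trend removed, 20 were suppressed and 5 induced (median -0.11). EEF1E1, a scaffold protein of the synthetase complex, fell from 16.2 ± 3.41 to 9.32 ± 0.863 CPM (-0.80, or -0.46 with the GC trend removed), whereas EEF2, the elongation factor that moves the ribosome, rose from 4054 ± 473 to 5242 ± 199 CPM, with a log2 fold change of 0.37 that was 0.10 with the GC trend removed. Of 19 cytosolic tRNA synthetases, 12 were suppressed and 0 induced by edgeR's test, as by DESeq2 and limma-voom, with 0 higher at an unadjusted p below 0.05 (median -0.22), and 15 and 0 with the GC trend removed, with 1 induced without EGFP replicate 3. IARS and LARS, for isoleucine and leucine, each fell by 0.55, with 0.30 for LARS with the GC trend removed. Of 10 polyamine genes, 4 were suppressed and 2 induced (median -0.18, or -0.12 without EGFP replicate 1), and 6 and 1 with the GC trend removed, when PAOX, an oxidase of acetylated polyamines, was not called (0.72, then 0.39). ODC1, which makes putrescine, was at 564, 537 and 522 CPM against 423, 446 and 393 CPM (-0.36 ± 0.07, FDR 0.00128). AMD1, which supplies the aminopropyl group, fell by 0.54 (0.28 with the GC trend removed), and OAZ2, an antizyme that marks ornithine decarboxylase for degradation, rose by 0.42.

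The E-box letters CACGTG were searched on both strands in RefSeq promoter windows of build GRCh38.p14, which run from 250 bases before to 50 bases after a transcription start. Windows were found for 10949 of the 13803 tested genes, and 7678 genes had a single window. The stretches around the E-box are shown for the 6 suppressed genes of the nucleolus, translation, nucleotide and polyamine lists with the largest falls and such a match before the start, with the E-box in capitals.
PPAT (chr4:56435770-56435819, minus strand): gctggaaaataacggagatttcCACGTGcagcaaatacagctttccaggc
CIRH1A (chr16:69132611-69132648, plus strand): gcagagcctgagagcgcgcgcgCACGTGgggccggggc
LYAR (chr4:4290058-4290107, minus strand): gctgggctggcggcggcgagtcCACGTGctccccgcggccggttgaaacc
DDX21 (chr10:68956594-68956643, plus strand): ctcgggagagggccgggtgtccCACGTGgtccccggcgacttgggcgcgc
ATIC (chr2:215311991-215312040, plus strand): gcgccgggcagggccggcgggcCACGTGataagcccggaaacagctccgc
EIF4E (chr4:98929178-98929227, minus strand): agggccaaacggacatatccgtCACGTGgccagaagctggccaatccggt
The E-box ended 10 bases (CIRH1A) to 176 bases (PPAT) before the start. The log2 fold changes were -0.67 for PPAT, the first enzyme of purine synthesis, -0.48 for CIRH1A, a small subunit assembly factor, -0.47 for both LYAR, a nucleolar factor, and DDX21, a nucleolar helicase, -0.43 for ATIC, the last enzyme of purine synthesis, and -0.42 for EIF4E, the cap-binding factor. With the GC trend removed the values were -0.38 for PPAT, -0.30 for LYAR and -0.26 for DDX21, and EIF4E, at -0.04, was not called.

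An E-box match was about as frequent in either direction of change. It was found in 9.66% of windows of suppressed genes, 9.73% of induced genes, 11% of genes not called, 10.3% of all 7678 genes with a single window and 7.26% of all 35116 windows of the table. The table's windows have a lower median GC content (58.7%) than those of the 7678 genes (66%), so the share over the 7678 is given first in what follows. Of the 791 genes with a match, 25.3% were suppressed and 24.4% induced, against 27.2% and 26.0% of the 6887 without. By list the share was 42.4% of 33 windows for the nucleolus, 39.1% of 23 for lysosome and autophagy and 5.56% of 18 for the synapse. The variant CACGCG was found in 20.7% of suppressed and 15.8% of induced windows, beside 18.2% of the 7678 and 11.4% of all windows. CCAAT was found in 41.4% of suppressed and 36.4% of induced windows (37.1% and 34.6%), and in 78.9% of the 38 windows of mitotic genes. The E2F-type letters TTCGCGC and TTGGCGC were in 31.0% and 34.5% of 29 windows of replication genes, against 4.22% and 4.98% of the 7678 and 2.24% and 3.04% of all windows. TATAAA was in 5.27% of suppressed and 4.34% of induced windows, beside 5.24% of the 7678 and 11.5% of all windows. A match is a description of letters in the window and not of binding.

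**Figure D4:**
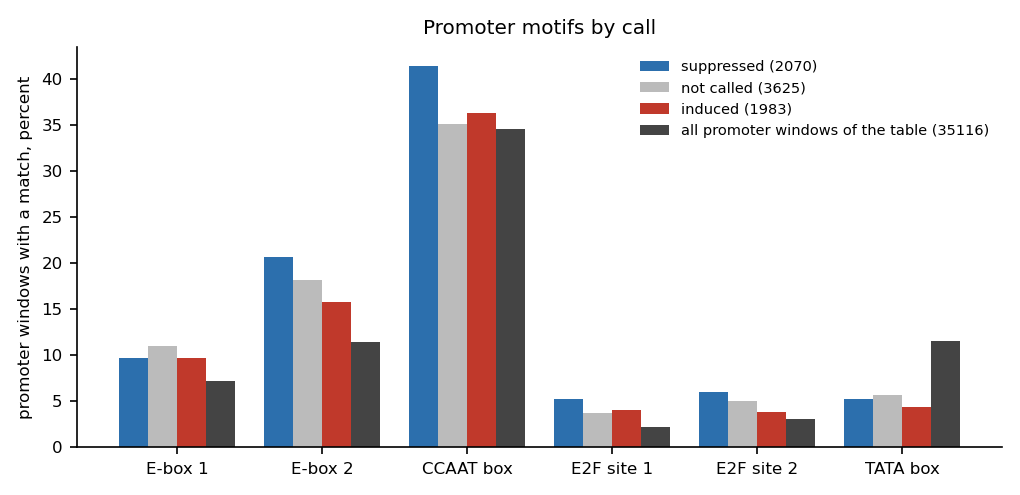
Percent of promoter windows that hold each motif on either strand, for suppressed (blue), not called (grey) and induced (red) genes with a single window and for all windows of the table (black). E-box 1 is CACGTG, E-box 2 CACGCG, E2F sites 1 and 2 are TTCGCGC and TTGGCGC, and the E-box 1 bars of suppressed and induced genes stand at 9.66% and 9.73%.

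Division genes fell as a group. Of 54 mitotic genes, 48 were suppressed and 0 induced by edgeR's test, DESeq2 and limma-voom alike, and none of the 54 had a log2 fold change above 0 (median -0.62, or -0.45 with 53 of 53 suppressed after removal of the GC trend). CDK1, the kinase that starts mitosis, was at 147, 111 and 96.5 CPM with EGFP and at 55.8, 63.7 and 53.8 CPM with OmoMYC (-1.03 ± 0.14). EGFP replicate 1 was the highest, and HMMR, a spindle assembly protein, fell by 1.00 (0.66 with the GC trend removed). Of 43 replication genes, 34 were suppressed and 0 induced, likewise with none of the 43 above 0 (median -0.34), among them RPA3, which coats single-stranded DNA (-0.92), and WDHD1, which couples polymerase to helicase (-0.86). Of 29 regulators of G1, 11 were suppressed and 2 induced, and 20 and 2 with the GC trend removed. Without EGFP replicate 1, 18 were suppressed and 1 induced, 0 were induced when any library but EGFP replicates 1 and 3 was left out, and 1 with DESeq2 or limma-voom. CDK2 (-0.67) and SKP2, which marks p27 for degradation (-0.56, and -0.31 with the GC trend removed), had the largest falls under the rule used. CDKN1A, the inhibitor p21, fell from 60.3 ± 5.24 to 47.8 ± 1.36 CPM (-0.34, or -0.57 with the GC trend removed). CDKN1B, the inhibitor p27, was at 103, 105 and 95.4 CPM against 117, 120 and 117 CPM, a rise of 0.22 whose call was lost when any library other than EGFP replicate 1 was left out, and that was 0.40 with the GC trend removed. CCND1 (-0.06) and CDK4 (-0.09), the cyclin D1 gene and its kinase, were not called, and both were called with the GC trend removed (-0.11 and -0.19), CCND1 also without EGFP replicate 1 (-0.14).

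Genes of neurons rose in several lists. Of 31 sodium and calcium channel genes, 20 were induced and 1 suppressed (0 to 2 with single libraries left out, median 0.72, or 0.57 with the GC trend removed). SCN3A, a neuronal sodium channel, was at 32.1, 27.7 and 25.7 CPM against 133, 138 and 125 CPM (2.21 ± 0.09). Of 37 genes of the synapse, 26 were induced and 2 suppressed (median 0.43, and 28 and 0 with the GC trend removed, when 34 could be tested and SHANK2 could not). SYN3, a synaptic vesicle protein, rose from 3.72 ± 0.504 to 31.4 ± 0.743 CPM and NRXN2, a presynaptic adhesion receptor, from 30.1 ± 4.80 to 86.9 ± 3.96 CPM, while SHANK2, a postsynaptic scaffold, fell from 10.6 ± 1.04 to 5.93 ± 0.790 CPM. Of 31 genes of the neuronal cytoskeleton and adhesion, 17 were induced and 2 suppressed (median 0.30), and 22 and 5 with the GC trend removed. The suppressed number was 5 also without EGFP replicate 3, and 1 without EGFP replicate 2 or OmoMYC replicate 1. MAP2, which stabilises dendritic microtubules, was at 371, 345 and 334 CPM against 832, 857 and 830 CPM (1.26 ± 0.06), STMN4 rose from 3.91 ± 0.717 to 20.4 ± 1.74 CPM, and STMN1, which destabilises microtubules, fell by 0.56.

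Potassium channels and transmitter receptors were mixed. Of 65 potassium channel genes, 23 were induced and 18 suppressed (median 0.13, or 0.03 without EGFP replicate 2). KCND2, a channel of the A-type current, was at 13, 14.9 and 14 CPM against 123, 131 and 123 CPM (3.17 ± 0.08), and KCNN3, a calcium-activated channel, rose by 2.95, beside the fall of KCNS2. Of 64 receptor genes, 19 were induced and 10 suppressed, and 21 and 20 with the GC trend removed. Their median of 0.05 was -0.01 without EGFP replicate 2 and -0.02 without OmoMYC replicate 3. GRIA3, an AMPA receptor subunit, was at 4.70, 4.87 and 3.44 CPM against 91.6, 98.4 and 91.5 CPM (4.43 ± 0.12), and GABRB1 rose from 0.167 ± 0.0924 to 1.93 ± 0.107 CPM while GABRA5, another GABA receptor subunit, fell by 1.37. Groups did not overlap in these genes, which the rule that named them required. Of 48 cadherins and protocadherins, 15 were induced and 8 suppressed (median 0.29). CDH6 was at 1.61, 1.29 and 1.72 CPM against 27.6, 26.1 and 26.2 CPM (4.10 ± 0.12), and CDH7 fell by 0.98 (0.65 with the GC trend removed). Of 66 axon guidance genes, 26 were induced and 10 suppressed, and 23 and 19 with the GC trend removed (median 0.19, then 0.07). The median was 0.09 without EGFP replicate 1 and 0.12 without OmoMYC replicate 3. SEMA3C, a secreted semaphorin, had a log2 fold change of 4.81 from a level near 0 with EGFP, and SEMA5B, a membrane semaphorin, fell by 1.34.

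Lineage factors of neuroblastoma were counted at high levels in both groups. HAND2, a bHLH factor of sympathetic neurons, was at 240, 255 and 279 CPM with EGFP and at 273, 264 and 288 CPM with OmoMYC, and GATA3, a zinc finger factor of that lineage, at 282, 310 and 315 CPM against 308, 323 and 338 CPM. The groups overlapped for both. Log2 fold changes of 0.09 for each were not called. With the GC trend removed their values were -0.16, which was called, and -0.05, which was not. Of 19 adrenergic transcription factors, 5 were induced and 4 suppressed, and 5 and 8 of 18 with the GC trend removed (median 0.09, then -0.10). Without EGFP replicate 1, 7 were suppressed. The median was 0.03 without EGFP replicate 1 or OmoMYC replicate 3, 0.04 without EGFP replicate 2 and 0.05 without OmoMYC replicate 2. TBX2, a T-box factor, rose from 147 ± 28.1 to 293 ± 23.1 CPM (0.99, or 0.65 with the GC trend removed), ZNF536, a zinc finger repressor, rose by 1.06 and ISL1, a LIM homeobox factor, was at 31.7, 29.9 and 28.3 CPM against 49.5, 52.2 and 49.8 CPM (0.75 ± 0.08). Every OmoMYC library was above every EGFP library for ISL1.

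TH and DBH, enzymes of the noradrenaline pathway, were counted at low levels in both groups. TH, the rate-limiting enzyme of catecholamine synthesis, was at 0.189, 0.179 and 0.344 CPM against 0.682, 0.571 and 1.05 CPM (1.66 ± 0.39, FDR 0.00500), and DBH, which makes noradrenaline, at 0.505, 0.537 and 0.172 CPM against 1.13, 0.934 and 1.41 CPM (1.49 ± 0.35). Both were higher in all OmoMYC libraries at levels close to 1 CPM. GCH1, which makes the cofactor of TH, fell from 46.8 ± 5.18 to 26.6 ± 1.68 CPM, and SCG2, a granin, rose from 79.3 ± 5.66 to 124 ± 3.96 CPM. Over the list of catecholamine and peptide secretion, 6 of 18 genes were induced and 1 suppressed, and 6 and 3 with the GC trend removed. The suppressed number was 2 without EGFP replicate 1, and 3 were induced among genes with at least 10 counts in every library.

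Receptors for growth factors changed in both directions, with 9 of 28 induced and 10 suppressed (median -0.06), and 7 and 13 with the GC trend removed (median -0.13). The median was -0.01 without OmoMYC replicate 1 and -0.03 without OmoMYC replicate 2 or 3. NGFR, the low-affinity neurotrophin receptor p75, was at 18.2, 20.7 and 23.6 CPM against 450, 425 and 481 CPM (4.44 ± 0.10), and parental cells had 1.2 to 1.5 CPM. LTK, a kinase related to ALK, rose by 1.44. PDGFRA was at 43.4, 36.6 and 36.3 CPM against 14.5, 15.7 and 14.4 CPM (-1.38 ± 0.10) and KIT, the receptor for stem cell factor, at 35.1, 32.6 and 29.0 CPM against 14.7, 14.5 and 14.2 CPM (-1.16 ± 0.09). Parental cells had 17.5 to 19.2 CPM of PDGFRA and 29.2 to 31.4 CPM of KIT. Of 14 mesenchymal markers, 2 were induced and 5 suppressed, with 2 suppressed without OmoMYC replicate 1 and 3 without EGFP replicate 2 or OmoMYC replicate 3. CD44, a hyaluronan receptor, rose from 3.11 ± 0.364 to 10.3 ± 2.00 CPM and YAP1, the effector of the Hippo pathway, fell from 7.91 ± 0.378 to 3.67 ± 0.617 CPM.

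Among genes of muscle, 10 of 39 were induced and 7 suppressed (median 0.13), and 12 and 11 with the GC trend removed. MEF2A, a MADS-box factor of muscle and neurons, was at 45.4, 45.8 and 43.2 CPM against 936, 908 and 841 CPM (4.32 ± 0.07), and PDLIM3, a protein of the sarcomere Z line, fell by 0.87. TNNI1, slow troponin I, had 1, 1 and 0 counts with EGFP and 71, 76 and 55 with OmoMYC, a ratio of 91.1-fold (95% counting interval 24.9 to 758). Of 42 genes of the WNT pathway, 10 were induced and 11 suppressed, and 12 and 21 with the GC trend removed (median -0.15). The median from the counts as deposited was -0.0037 and took either sign in other settings. FZD1, a WNT receptor, was at 39.6, 40.0 and 43.6 CPM against 215, 196 and 197 CPM (2.30 ± 0.08), while TCF7L2, a factor that acts with beta-catenin, fell by 1.11. Of 45 collagens and laminins, 19 were induced and 8 suppressed, and 15 and 11 of 44 with the GC trend removed (median 0.12, then 0.05). LAMB4 (3.88) and COL11A2 (4.27) rose from levels near 0, and COL1A2 (-1.02) and LAMA1 (-0.94) fell. Of 20 HOX genes, 4 were induced and 6 suppressed, and the median of 0.11 became -0.15 with the GC trend removed, -0.06 without EGFP replicate 1, -0.07 without EGFP replicate 3 and -0.09 without OmoMYC replicate 3.

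Most markers of other cell types were low. Of 19 listed, 11 were tested, 4 were induced (2 without OmoMYC replicate 2) and 3 suppressed, and their summed level was 41.1 to 52.3 CPM with EGFP and 45.9 to 56.5 CPM with OmoMYC. The sum hides opposite changes. COL1A1 rose from 21.2 to 31.5 CPM (0.57, or 0.26 with the GC trend removed), and COL1A2 fell from 15.7 to 7.78 CPM. PTPRC had 13, 12 and 11 counts with EGFP and 0, 2 and 2 with OmoMYC. DCN had 7, 14 and 7 against 25, 40 and 18. The endothelial markers PECAM1 and VWF had at most 3 counts in every library. CDH5, another endothelial marker of the list, had 6, 10 and 5 counts with EGFP and 11, 4 and 12 with OmoMYC. KDR, an endothelial receptor, had 2, 0 and 3 counts with EGFP and 53, 35 and 39 with OmoMYC.

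Of 29 targets of p53, 11 were induced and 8 suppressed (median 0.03, or 0.14 with the GC trend removed). Without EGFP replicate 2 or OmoMYC replicate 3, 7 were induced, and the median was -0.03 without EGFP replicate 2 or OmoMYC replicate 2. The BH3-only genes, which promote cell death by binding BCL2 proteins, split. HRK was at 0.883, 1.65 and 0.964 CPM against 3.92, 4.96 and 4.47 CPM (1.95 ± 0.22), BBC3 rose by 1.24, and PMAIP1 fell from 48.9 ± 6.99 to 23.7 ± 2.41 CPM. BCL2, which opposes them, fell by 0.58. Of 46 genes of lysosome and autophagy, 16 were induced (10 without OmoMYC replicate 2) and 4 suppressed (9 without EGFP replicate 3), with a median of 0.08 that was 0.05 without EGFP replicate 2, 0.01 without EGFP replicate 3 and 0.0044 without OmoMYC replicate 2. CTSF, a lysosomal protease, was at 15.6, 20.5 and 19.2 CPM against 59.0, 58.3 and 61.7 CPM (1.70 ± 0.10), GRN, a lysosomal glycoprotein, rose by 0.84 (0.53 with the GC trend removed), and MITF, a factor of the TFEB family, fell by 0.85.

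All 13 proteins of the mitochondrial genome had positive log2 fold changes (median 0.50), and 10 were induced (8 with the GC trend removed). MT-ND4, a subunit of complex I, was at 2245, 3121 and 3043 CPM against 5027, 5157 and 4752 CPM (0.83 ± 0.11). Their summed level was 25612 to 33805 CPM with EGFP and 41148 to 45115 CPM with OmoMYC, and EGFP replicate 1 was the lowest. MT-ND5 (0.88) was not called with the GC trend removed or with a replicate block. Parental DMSO libraries had 5932 to 6625 CPM of MT-ND4, above both groups. They had 3943 to 4322 CPM of MT-ND5, beside means of 2373 CPM with EGFP and 4382 CPM with OmoMYC. Of 73 nuclear genes of the respiratory chain, 26 were suppressed and 9 induced (median -0.12). Without OmoMYC replicate 3 these numbers were 14 and 3, and 4 were induced without OmoMYC replicate 1 and 5 without OmoMYC replicate 2. With trends on both GC content and length removed, 13 were suppressed and 14 induced (median 0.01). The median was -0.23 without EGFP replicate 3 and -0.20 without OmoMYC replicate 2. Of 71 mitochondrial ribosomal proteins, 33 were suppressed and 3 induced (median -0.19), with 5 induced without EGFP replicate 3 and 7 with both trends removed. SDHD, a membrane anchor of complex II, fell by 0.96 and was not called once trends on GC content and length had both been removed, and MRPS36 fell by 1.10 (0.71 with the GC trend removed). Of 20 glycolysis genes, 7 were suppressed and 3 induced, and 13 and 3 with the GC trend removed (median -0.09, then -0.26). Without EGFP replicate 1, 12 were suppressed and the median was -0.20. LDHA, which makes lactate, was at 1042, 1024 and 945 CPM against 679, 704 and 625 CPM (-0.58 ± 0.07, or -0.39 with the GC trend removed), and PDK1, which inhibits pyruvate entry into mitochondria, fell by 0.85. SLC16A3, a lactate exporter, rose by 0.94.

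Of 59 splicing genes, 36 were suppressed and 2 induced (median -0.21, or -0.14 with 5 induced after removal of the GC trend), and of 44 proteasome genes, 21 were suppressed and 4 induced (median -0.13). Only 1 or 2 proteasome genes were induced when any library other than EGFP replicate 3 was left out, and 1 splicing gene without OmoMYC replicate 2. SNRPE, an Sm protein of snRNPs, fell by 0.78 (0.51 with the GC trend removed) and PSMA1, a subunit of the core particle, by 0.74. Of 442 zinc finger genes, 138 were suppressed and 69 induced (median -0.11, or -0.16 without EGFP replicate 3), but 100 and 91 with the GC trend removed (median -0.01), and 41 and 40 were induced without EGFP replicate 2 and OmoMYC replicate 3. Of 12 genes of MHC class I and interferon response, 4 were suppressed and 2 induced. IFI6 was at 5.08, 5.69 and 5.75 CPM against 31.1, 27 and 25.6 CPM (2.34 ± 0.11), and IFI44, another interferon-induced gene, was at 292, 256 and 215 CPM against 128, 141 and 118 CPM (-0.98 ± 0.11). These 2 interferon genes moved in opposite directions.

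On 2p24, where MYCN lies, 4 neighbours were tested. DDX1, an RNA helicase co-amplified with MYCN in some tumours, was the most counted gene and fell from 34219 ± 3912 to 26174 ± 788 CPM (-0.39 ± 0.08), and NBAS fell by 0.24 (0.15 with the GC trend removed). FAM49A and FAM84A rose by 2.23 and 1.87, from 1.82 ± 0.182 and 16.6 ± 1.24 CPM with EGFP.

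**Figure D5:**
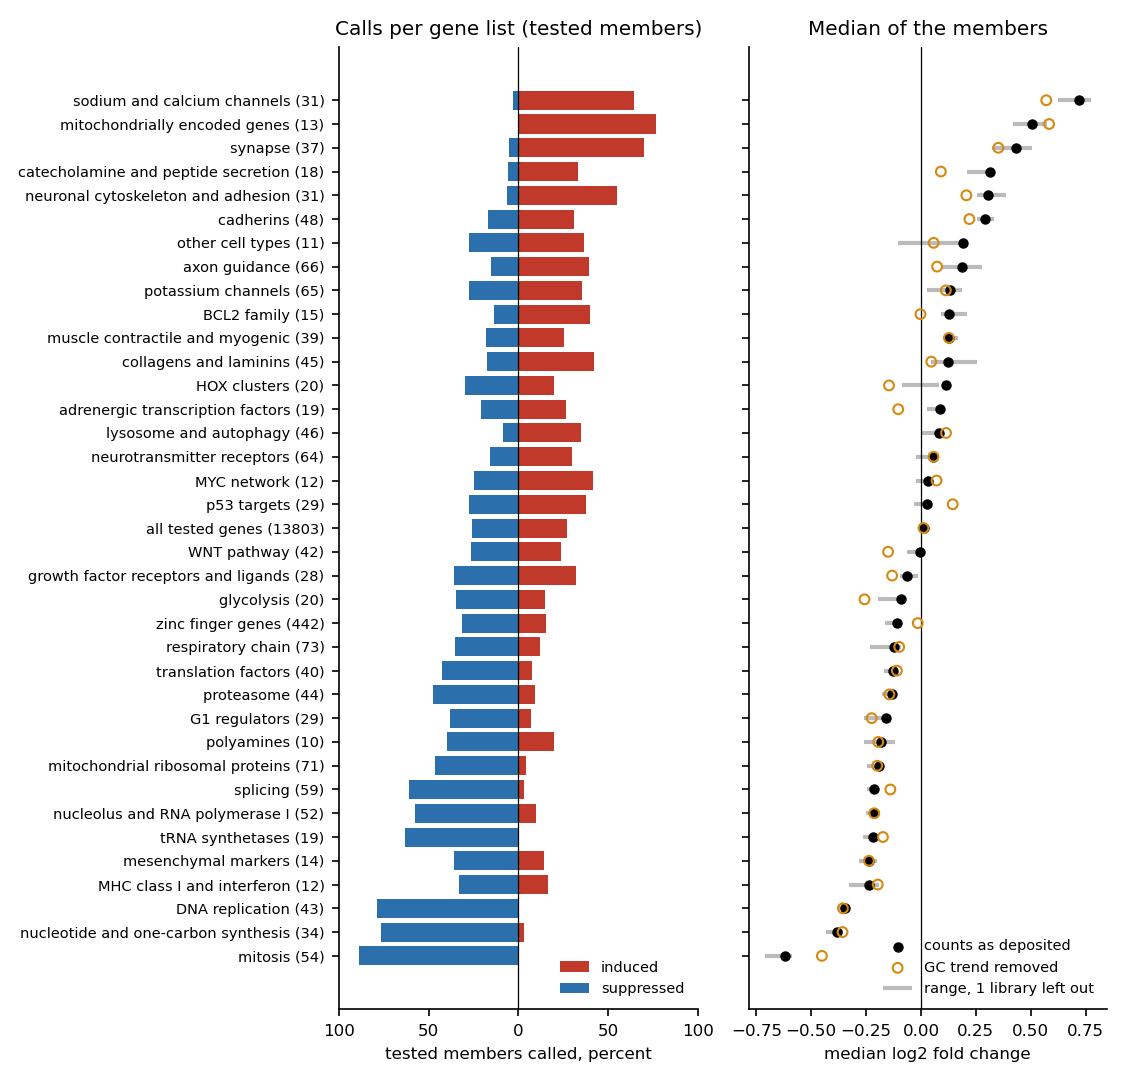
Left, percent of tested members called induced (red) or suppressed (blue) in each gene list drawn and in all tested genes, with the number tested in brackets. The list of 4 MYCN neighbours (median 0.81) is not drawn. Right, median log2 fold change from the counts as deposited (black), with the GC trend removed (open orange), and its range with each library left out (grey line), ordered from sodium and calcium channels (0.72) to mitosis (-0.62).

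Shares of calls differed by chromosome. On chromosome 22, 39.8% of 342 genes were induced and 9.06% suppressed, and on chromosome 19 38.0% of 991 and 11.9%. On chromosome 18, 17.8% of 191 were induced and 40.8% suppressed, and on chromosome 13 15.0% of 246 and 40.2%. With the GC trend removed, the median log2 fold changes of these chromosomes lay between -0.04 and 0.04. By gene length on the genome, the shortest of 10 equal classes had 31.1% induced and 14.1% suppressed, class 8, which begins at 70501 bases, 21.6% and 32.7%, and the longest class, which begins at 188926 bases, 32.4% and 23.4%. With the GC trend removed, the induced and suppressed shares were 22.4% and 28% in the shortest class, 33.4% and 29.2% in class 8, and 46.4% and 21.9% in the longest.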

How the data were processed

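RNA was measured by RNA-seq in 14 libraries, of which 3 EGFP and 3 OmoMYC libraries were compared. The deposited values are counts per gene that the authors made with STAR, hg19 and featureCounts, without normalization, and all columns were mapped to samples. The annotation, its strandedness and the handling of reads of similar genes are not given in the sources used here. Genes were handled by identifier, since 538 entries share a symbol. The labels call the replicates separate samples, and the study's methods call them biological.

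Counts were filtered with edgeR 4.0.16 (filterByExpr), scaled by TMM and tested by its robust quasi-likelihood test in R 4.3.3, with Benjamini-Hochberg adjustment over 13803 genes and a threshold of 0.05. DESeq2 1.42.0, limma-voom (limma 3.58.1) and other alternatives were run. Coordinates are from GENCODE 44 lifted to GRCh37, which matched 13499 tested genes. The GC trend was removed per library by a robust lowess with a span of 0.3, chosen after the data had been seen. On simulated data of this design edgeR recovered 184 of 200 changed genes with 13 false calls. The simulation held no GC trend, no small changes and far fewer changed genes than were called here. It therefore does not give the error rate of the reported calls.

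The members and the 37 gene lists were chosen with earlier results of these data known, so a list's count is not independent evidence, and a symbol in a list stands for its entry with the highest mean. Genes were named by a rule that takes 14 listed genes and, where the groups do not overlap and the higher group reaches 1 CPM, the 12 called genes that rose most, the 12 that fell most, and up to 2 of each kind per list. Some genes that the rule takes are not reported here. Other members are named as the text describes them, after their values were seen. Depth sets the counting error, and counts up to 3 were taken as the floor.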

Additional observations from a re-analysis of the deposited data

Results flagged for a closer look

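In the 4 parental DMSO libraries, whose levels were set beside the largest rises and falls, a single library stood apart for NEUROD6, where the gap to the nearest library was 0.934 of the range from 4.95 to 6.14 CPM. About 1 in 20 such groups of 4 would be marked by chance, and the groups of 3 were not examined in this way.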

How the results depend on the processing

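The numbers of suppressed, induced, and past 2-fold suppressed and induced genes stayed within 1.5 times those reported under each of 14 other settings and 2 more that were added after the data were seen. Leaving out one library gave 2842 to 4184 suppressed and 2698 to 4065 induced genes, and 190 to 299 and 848 to 1041 past 2-fold. With the GC trend removed 3891 genes were suppressed and 4166 induced. Of the genes suppressed in the counts as deposited, 2626 remained so, 845 were not called and 5 were induced, and of the induced genes 2984 remained, 729 were not called and 1 was suppressed. EEF1D, an elongation factor subunit, rose by a log2 fold change of 0.29 and had -0.0315 with the GC trend removed, by that construction. A block for replicate number gave 3867 suppressed and 4233 induced genes. The deviations of same-numbered libraries correlated at 0.076, -0.070 and 0.293. Deviations within so small a group depend on each other, so these values cannot decide whether the replicate numbers pair the samples. Of 163 named genes, 162 kept direction and call with DESeq2 and 151 with the GC trend removed, where SHANK2 and COL11A2 could not be tested. Genes under 1 CPM are limited by counting error.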
